A study of Mus musculus with 6 samples.

Results

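Abdominal and back skin of the same mouse differ in hair, thickness and embryonic origin, and the gene expression of basal cells from both ventral groups was set here against that of dorsal basal cells. The 6 arrays of the study were all used: 2 of virgin ventral skin, 2 of ventral skin at 16 days post coitum (dpc) and 2 of dorsal skin at 16 dpc. The 4 ventral arrays were taken as 1 side and the 2 dorsal arrays as the other, and a gene was described where all 4 ventral arrays lay above, or all 4 below, both dorsal arrays. Of 10993 genes kept by detection, 358 lay above (ventral-high) and 798 below (dorsal-high), which are 3.26% and 7.26% of the genes kept. These shares are what the rule finds over all genes and are read as a description. Counts from the gene lists below, which were chosen with earlier results of these data known, are to be read beside them.

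All mice were female, C57BL/6 and 10 weeks old, with no transgene, and the mice at 16 dpc were pregnant. The file headers place these mice slightly later than the labels do, and 16 dpc is kept here as the labels have it. Fat was scraped from the skin, the dermis was taken off after trypsin, and cells positive for integrin α6, a basal cell adhesion receptor, and negative for the dead-cell dye propidium iodide were sorted. Total RNA was measured on Affymetrix 3′ expression arrays, which report a signal in arbitrary units and a detection call for each probe set. Virgin dorsal skin was not analysed here, so virgin ventral and 16 dpc dorsal cells differ in site and in pregnancy, and for that pair the 2 cannot be told apart. A gene without overlap had the ventral arrays of both states on 1 side of the dorsal arrays. That describes these 6 arrays and is not by itself a tested difference.

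The epidermis is renewed by basal keratinocytes, which lie on the basement membrane, divide, and send daughters upward to cornify. Skin cells keep a memory of where on the body they lie through transcription factors such as the HOX and T-box proteins, which were set out along the axes of the embryo. Ventral skin of female mice also carries mammary glands and nipples, and a cell suspension of skin can hold follicle, gland and immune cells beside those of the interfollicular epidermis (IFE). For tissue sections the study took medial abdominal skin, to leave out parts with growing mammary glands. Its methods do not state the area for the sorted cells.

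The sort marker and the keratins Krt14 and Krt10 did not separate the sites. Itga6, the sorted integrin, had signals of 15364 and 19079 in dorsal cells, 17403 and 16493 in virgin ventral cells and 15226 and 16846 in 16 dpc ventral cells. Krt14, a keratin of basal cells, averaged 0.05 lower on the log2 scale in ventral cells (log2 difference -0.05 ± 0.21, SE), and Krt10, a keratin of suprabasal cells, -0.07 ± 0.19. Krt10 signals were 34930 to 50772 over all 6 arrays, so that the sorted cells also carried RNA of this suprabasal keratin. Of 18 basal keratinocyte genes kept, 1 did not overlap, Igfbp3, a secreted binder of insulin-like growth factors that was ventral-high, and the median difference of the list was -0.06, beside -0.05 over all genes.

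Quality differed between the arrays. The calls of present ran from 21285 to 24053 per array, and the ratio of 3′ to 5′ signal of the β-actin control, which is higher in degraded RNA, was 4.47 and 3.90 on the second array of dorsal and of 16 dpc ventral cells against 1.78 to 2.46 on the other 4 arrays. One of the 2 high arrays was dorsal and the other ventral, and the part of RNA quality in the results was not tested. The labels do not say whether the arrays of a group came from separate mice, and the study's methods speak only in general of repeats with different mice, so p-values cover only how far these arrays spread, and that spread may be technical.

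A smaller set stood at least 2-fold from dorsal cells in each ventral group taken alone: 45 ventral-high genes (0.409% of genes kept) and 22 dorsal-high genes (0.2%). Nearest to that limit, Tmem30c and Dtx1 were inside it with a smaller log2 difference of 1.002 each, while Duox1 and Lgr6 were outside with 0.95 and 0.97. In a model of all genes (limma, Benjamini-Hochberg adjustment, average of both ventral groups minus dorsal), 7 genes passed an adjusted p of 0.05 without overlap: Tbx3, Tgm3, Gadl1 and Pyy ventral-high (4 genes, 0.0364%) and Lyz1, Lgr6 and Trpm3 dorsal-high (3 genes, 0.0273%). At an unadjusted p under 0.05 there were 467 genes, with 169 of the 358 ventral-high and 165 of the 798 dorsal-high genes among them. The calls hold for the average only. With each ventral group taken alone against dorsal cells in the same model, 0 genes passed for virgin ventral cells and 9 for 16 dpc ventral cells. In virgin ventral cells alone the limma adjusted p was 0.0526 for Tbx3 and Lyz1 and 0.151 to 0.515 for the others of the 7. All 45 and all 22 genes had the same sign within each replicate number, that is, between arrays numbered 1 and between arrays numbered 2. The rule of no overlap fixes this sign in advance, so it is no further evidence. In the file headers, arrays of the same number share their first digits, whose meaning is not given. Within number 1 and within number 2 the difference of Tbx3 was 4.03 and 5.62.

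**Figure D1:**
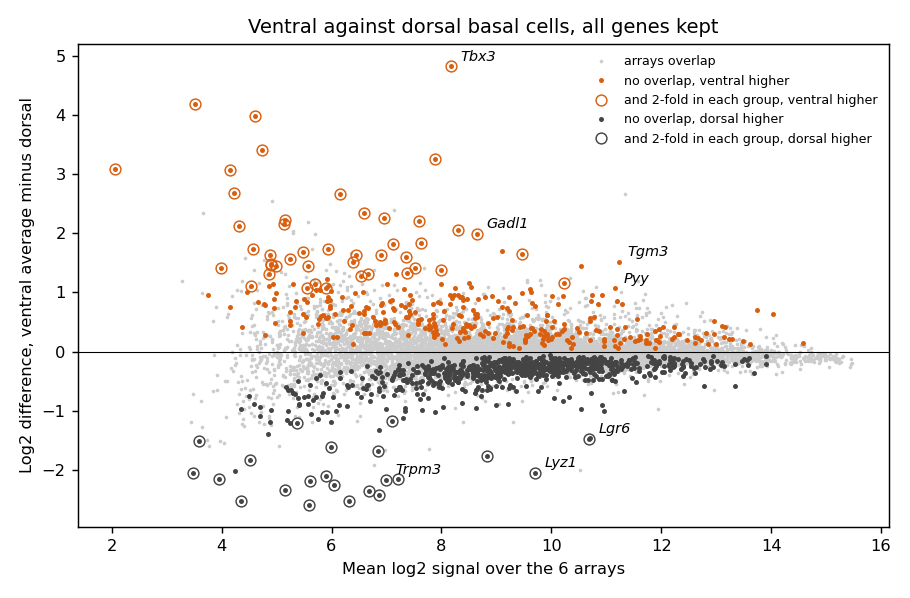
Each point is 1 of the 10993 genes kept, with its mean log2 signal over the 6 arrays on the x axis and its log2 difference (average of both ventral groups minus dorsal) on the y axis. Orange and dark points are the 358 ventral-high and 798 dorsal-high genes, rings mark the 45 and 22 that were 2-fold in each ventral group, and the 7 named genes passed the adjusted p. Most dorsal-high genes lie close to 0 (median -0.29), ventral-high genes somewhat farther (median 0.54), and ringed genes are mostly of low signal.

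Tbx3 stood farthest from dorsal cells. It encodes a T-box transcription factor needed for the limbs, the heart and the mammary gland. Its signals were 60.6 and 16.0 in dorsal cells, called present on neither array, against 613 and 534 in virgin ventral cells and 1593 and 1164 in 16 dpc ventral cells. Every ventral array was thus well above both dorsal arrays, and the 16 dpc ventral arrays were the highest. The difference was 4.83 ± 0.45 (log2, SE; limma adjusted p = 0.0270), with 4.20 in virgin and 5.45 in 16 dpc ventral cells. As dorsal cells were not called present, the fold is written as a bound, at least 28.4-fold. Such bounds, here and below, set the mean log2 signal of the bright group against that of the dim group, in which each array counts at its own signal or at the lowest signal called present on that array, whichever is higher. Where the dim signals lie above that lowest signal, as for Tbx3, the bound equals the fold of the measured log2 means and carries their error. A further Tbx3 probe set gave 19.9 and 34.8 in dorsal cells and from 453 to 1429 in ventral cells, a log2 difference of 4.91. The difference between the pregnant and the virgin ventral cells did not pass (adjusted p = 0.404). Its log2 difference was 3.86 without dorsal replicate 2 and 5.79 without dorsal replicate 1. Tbx3 kept an adjusted p under 0.05 without either dorsal or either 16 dpc ventral array, but not without virgin ventral replicate 1 (0.103) or replicate 2 (0.157).

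Gadl1, an enzyme of the decarboxylase family that makes β-alanine, was ventral-high in both states and passed the test in the average of both. Its signals were 192 and 134 in dorsal, 602 and 384 in virgin ventral and 798 and 887 in 16 dpc ventral cells, and every ventral array lay above both dorsal arrays. The difference was 1.99 ± 0.24 (limma adjusted p = 0.0407), 3.97-fold, and a further probe set gave 2.31. Of 18 kept genes of sulphur amino acid, cysteine and serine metabolism, 1 other did not overlap: Cbs, which joins homocysteine to serine, was dorsal-high with a difference of -0.84 ± 0.14 (adjusted p = 0.129).

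Pyy, a gut peptide hormone gene, had nearly equal dorsal signals of 1393 and 1388, with 2571 and 2199 in virgin ventral and 3896 and 3349 in 16 dpc ventral cells. The difference of 1.08 ± 0.14 passed the test (limma adjusted p = 0.0474). In virgin ventral cells alone it was 0.77, under 2-fold.

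Tgm3, the transglutaminase that crosslinks the cornified envelope and the hair shaft, was ventral-high in both states and differed between them. Its signals were 1464 and 964 in dorsal, 2036 and 1940 in virgin ventral and 5648 and 6036 in 16 dpc ventral cells. The average difference was 1.52 ± 0.18 (limma adjusted p = 0.0369), made of 0.74 in virgin and 2.30 in 16 dpc ventral cells, and the gap of 1.55 between the states passed too (adjusted p = 0.0317). Among the 1156 genes without overlap, Tgm3 was the 1 gene whose ventral states differed by the test.

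On the dorsal side Lyz1, a lysozyme gene, had 1677 and 2774 in dorsal cells against 358 and 404 in virgin ventral and 860 and 600 in 16 dpc ventral cells. Every ventral array thus lay below both dorsal arrays, with a log2 difference of -2.05 ± 0.23 (limma adjusted p = 0.0369). The signal came from a probe set that can match more than 1 gene, and Lyz1 and Lyz2 are near-identical copies, so the 2 are uncertain. The Lyz1 probe set whose name marks no shared match was called present on no array. Lyz2, the lysozyme of macrophages and neutrophils, had 862 and 1214 in dorsal and from 198 to 550 in ventral cells (-1.76 ± 0.33, adjusted p = 0.203).

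Lgr6 encodes a receptor for R-spondins that marks stem cells of the upper follicle and some IFE cells. Its signals were 2778 and 3880 in dorsal cells, 1567 and 1783 in virgin ventral and 788 and 903 in 16 dpc ventral cells, without overlap between the 3 groups. The average difference was -1.47 ± 0.17 (limma adjusted p = 0.0369), with -0.97 in virgin and -1.96 in 16 dpc ventral cells. A further, dimmer probe set did overlap, with a difference of -0.64.

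Trpm3, a cation channel gene, had 333 and 359 in dorsal, 113 and 105 in virgin ventral and 59.0 and 50.2 in 16 dpc ventral cells. Its log2 difference of -2.17 ± 0.26 (limma adjusted p = 0.0389) was a 4.49-fold lower signal in ventral cells. The brightest of its further probe sets had 127 and 100 in dorsal cells and from 12.7 to 32.1 in ventral cells.

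Calls of this kind were few and turned on single arrays. The other 6 genes beside Tbx3 lost the call without virgin ventral replicate 1 (adjusted p = 0.103 for all 6), without virgin ventral replicate 2 (0.157), without dorsal replicate 2 (0.156 to 0.177) and without 16 dpc ventral replicate 2 (0.0756 to 0.0856), and the directions held in each case. Pyy and Trpm3 also lost it without dorsal replicate 1 (0.0844 for both), and all but Lyz1 without 16 dpc ventral replicate 1 (0.0516 to 0.110). No gene passed when the 4 ventral arrays were fitted as 1 group, when the variance was given no trend, or when all probe sets of a gene were averaged.

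**Figure D2:**
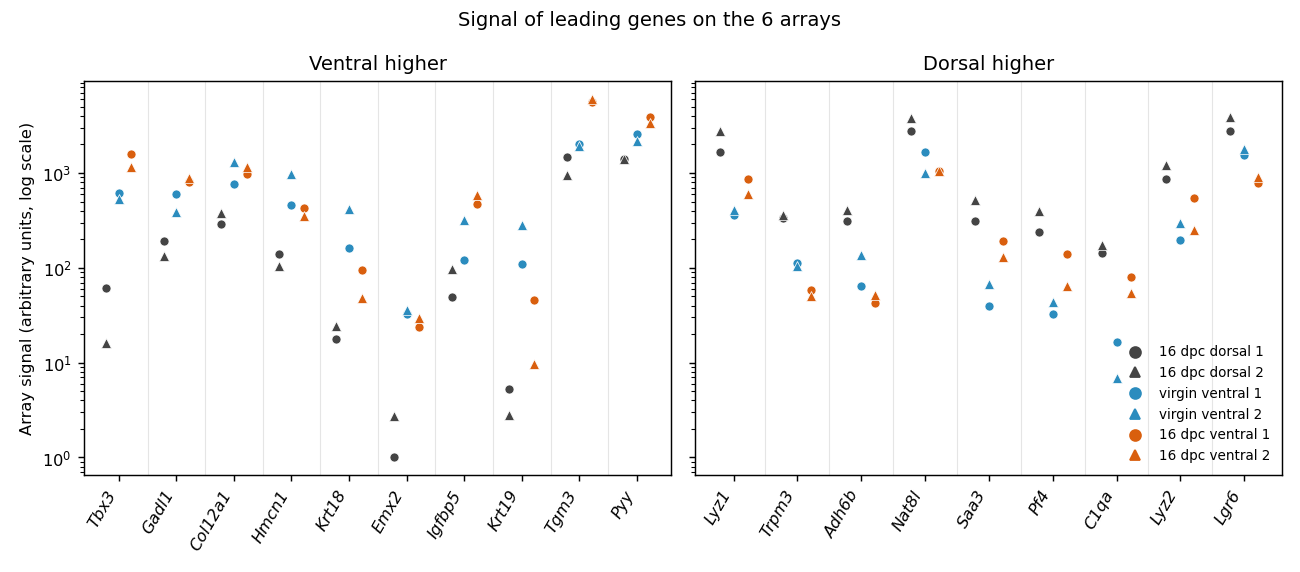
Signal on each array (log scale, arbitrary units) of the leading genes and of the genes that passed the test, ventral-high on the left and dorsal-high on the right. Each symbol is 1 array, coloured by group, with circles for replicate 1 and triangles for replicate 2; for Tbx3 the dorsal signals of 60.6 and 16.0 lie below all 4 ventral signals, and for Trpm3 the dorsal signals of 333 and 359 lie above them.

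Positional factors came next, and were few beside Tbx3. Of 5 T-box genes kept, 2 were ventral-high and 2-fold in each group: Tbx3 and Tbx1, a factor of the pharynx that is also active in hair follicle stem cells. Tbx1 had 101 and 79.3 in dorsal cells, 121 and 542 in virgin ventral and 223 and 174 in 16 dpc ventral cells, a log2 difference of 1.33 ± 0.51 that did not pass (limma adjusted p = 0.974). Its lowest ventral array stood barely above the highest dorsal one, and virgin ventral replicate 2 was more than 2 times any other array.

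Emx2, a homeobox factor of the forebrain and urogenital tract, was the 1 gene of 24 other patterning factors kept that did not overlap. It was listed at 1, the floor set on signals, and 2.77 in dorsal cells, with 32.9 and 35.7 in virgin ventral and 23.8 and 29.8 in 16 dpc ventral cells. It was called present on both virgin ventral arrays, 1 of the 16 dpc ventral arrays and neither dorsal array, so it was kept through ventral arrays alone and the filter favoured this direction. The ventral signal was at least 3.40-fold the dorsal bound, and the log2 difference of 4.18 ± 0.79, which rests on dorsal values near the floor, did not pass (limma adjusted p = 0.226). With signals floored at 32 it was 0.05.

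The 15 HOX genes kept of 33 on the array divided by cluster. HOX genes lie in 4 clusters, A to D, whose order along the chromosome matches their order along the body. Of 4 kept genes of the C cluster 3 were ventral-high and none dorsal-high, of 6 of the A cluster 3 were dorsal-high and none ventral-high, and of 5 of the B cluster 1 was dorsal-high. None of the 15 passed the limma test in the average (7 had an unadjusted p under 0.05), and 7 had no overlap, beside 3.26% and 7.26% of all genes in the 2 directions.

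Hoxc8, of the thoracic level, had 1118 and 1389 in dorsal cells, 2566 and 2177 in virgin ventral and 2275 and 2753 in 16 dpc ventral cells. Hoxc4 had 430 and 572 in dorsal cells and 997, 1067, 848 and 1078 on the ventral arrays. Hoxc5, between those genes in the cluster, had 161 and 253 in dorsal cells and from 320 to 495 in ventral cells. The 3 genes lay about 2-fold higher in ventral cells, by 0.96 ± 0.16, 1.002 ± 0.18 and 0.96 ± 0.28 on the log2 scale (limma adjusted p = 0.129, 0.193 and 0.854), and the virgin and pregnant ventral groups were close to each other: the difference for Hoxc8 was 0.92 in virgin and 1.01 in 16 dpc cells. The remaining kept gene of the C cluster overlapped, with a smaller difference of 0.38.

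Hoxa5 went the other way. Its signals were 2896 and 3411 in dorsal, 1902 and 1361 in virgin ventral and 1510 and 1558 in 16 dpc ventral cells, a log2 difference of -1.0004 ± 0.17 (limma adjusted p = 0.129), although a further probe set overlapped with -0.58. Hoxb9 had 155 and 162 in dorsal cells and 60.4, 22.6, 55.7 and 24.0 on the ventral arrays, none of them called present, so that dorsal cells were at least 4.30-fold higher (adjusted p = 0.560). Hoxb9 was kept through the dorsal arrays alone, so the filter favoured this direction. Hoxa2 and Hoxa3 were also dorsal-high (-0.65 and -0.80, adjusted p = 0.974 for both). Hoxa4, Hoxa7 and Hoxa9 overlapped, with differences from -0.17 to 0.31.

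**Figure D3:**
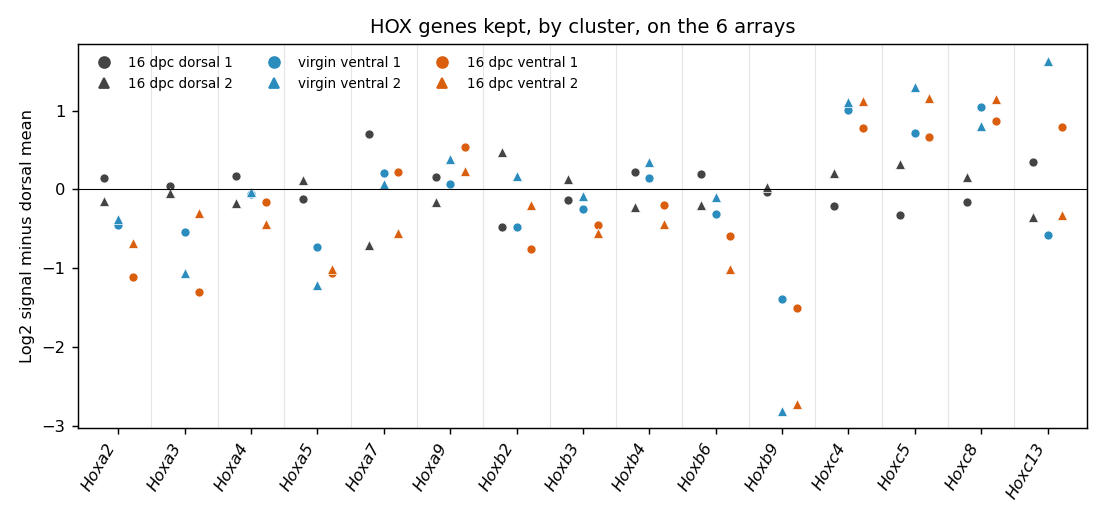
Log2 signal minus the mean of the dorsal arrays (y axis) for the 15 HOX genes kept, ordered by cluster on the x axis, with 1 symbol for each array. All 4 ventral arrays lie above both dorsal arrays for Hoxc4, Hoxc5 and Hoxc8, and below them for Hoxa2, Hoxa3, Hoxa5 and Hoxb9.

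Of the leading ventral-high genes, Col12a1, a collagen that links fibrils, had 290 and 375 in dorsal cells, 764 and 1314 in virgin ventral and 966 and 1169 in 16 dpc ventral cells (log2 difference 1.65 ± 0.24, limma adjusted p = 0.0841). Hmcn1, an extracellular protein of basement membranes, had 141 and 106 in dorsal cells, 460 and 967 in virgin ventral and 429 and 352 in 16 dpc ventral cells (2.06 ± 0.31, adjusted p = 0.0841). The ventral arrays were more than 2 times the dorsal ones for both genes, and neither passed. Igfbp5, a binder of insulin-like growth factors, had 49.6 and 97.5 in dorsal cells, 121 and 319 in virgin ventral and 473 and 587 in 16 dpc ventral cells (2.21 ± 0.42, adjusted p = 0.226). S1pr3, a receptor for sphingosine 1-phosphate, had 70.9 and 101 in dorsal cells and from 128 to 464 in ventral cells (1.83 ± 0.38, adjusted p = 0.321). Igfbp3 was bright on all arrays, at 9168 and 10617 in dorsal cells and from 14300 to 17474 in ventral cells (0.70 ± 0.14, adjusted p = 0.284). Further ventral-high genes at 2-fold were Col8a2, Fstl1, Cdh11, Ephb1 and Tnc, with log2 differences from 1.07 to 1.74, while the matrix genes Emilin2 and Prg4 were dorsal-high at 2-fold by -2.34 and -2.52 and Fn1 was dorsal-high by -0.65. None of these passed the test.

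Adh6b and Nat8l were among the leading dorsal-high genes. Adh6b, an alcohol dehydrogenase, had 314 and 403 in dorsal cells, 64.6 and 138 in virgin ventral and 42.5 and 51.3 in 16 dpc ventral cells, and was called present on no ventral array. Dorsal cells were at least 5.36-fold higher (log2 -2.42 ± 0.36, limma adjusted p = 0.0841). Nat8l, which makes N-acetylaspartate, had 2744 and 3838 in dorsal cells and 1677, 1009, 1037 and 1057 on the ventral arrays (-1.48 ± 0.22, adjusted p = 0.0841). Aspa, the enzyme that breaks N-acetylaspartate down, was by contrast ventral-high, with 24.2 and 10.4 in dorsal and from 27.5 to 47.8 in ventral cells (1.31 ± 0.56, adjusted p = 0.974), at signals near the detection limit.

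Of 16 retinoid genes kept, 3 did not overlap, beside 3.26% ventral-high and 7.26% dorsal-high of all genes kept. Adh6b and Adh1 were dorsal-high, Adh1 with 3728 and 2288 in dorsal cells against 1408 to 1923 in ventral cells (-0.89 ± 0.21, limma adjusted p = 0.524). Lrat, which stores retinol as esters, was ventral-high with 1.95 and 9.38 in dorsal cells and from 20.7 to 69.6 in ventral cells, was called present on the virgin ventral arrays only, and did not pass (adjusted p = 0.695). Adh6b and Lrat were each kept only through the side where they were high, so the filter favoured their direction. The median of the list was 0.00.

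Wnt signals act through Frizzled receptors and are strengthened by R-spondins through LGR receptors. Of 32 kept ligands, receptors and secreted inhibitors, 3 were ventral-high (Wnt5a, Wnt7b and Lgr5) and 2 dorsal-high (Lgr6 and Fzd3), with a list median of 0.09. The shares over all genes kept were 3.26% and 7.26%. Wnt5a, a ligand that acts mostly without β-catenin, had 451 and 425 in dorsal cells, 879 and 857 in virgin ventral and 536 and 621 in 16 dpc ventral cells (0.69 ± 0.16, limma adjusted p = 0.449). The receptors Lgr5 and Lgr6 thus lay on opposite sides, and of them Lgr6 passed the test. Rspo3, a ligand for both, overlapped in the pooled comparison, since it was lower than dorsal in 16 dpc ventral cells alone: its signals were 787 and 778 in dorsal, 1086 and 877 in virgin ventral and 241 and 276 in 16 dpc ventral cells.

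Late differentiation genes were mixed. Of 30 granular and cornified genes kept, 4 were ventral-high (Tgm3, Krt2, Klk8 and Sprr1a) and 3 dorsal-high, all of them late cornified envelope genes (Lce1b, Lce1c and Lce1f), and the list median was 0.17. The shares over all genes kept were 3.26% ventral-high and 7.26% dorsal-high. Krt2, a keratin of the upper spinous and granular layers, had 306 and 207 in dorsal cells, 386 and 484 in virgin ventral and 1899 and 1252 in 16 dpc ventral cells (1.70 ± 0.24, limma adjusted p = 0.0800). Klk8, a kallikrein protease, was higher in the virgin cells, with 957 and 609 in dorsal, 3270 and 2857 in virgin ventral and 1342 and 1512 in 16 dpc ventral cells (1.45 ± 0.19, adjusted p = 0.0551). The late envelope genes lie side by side in the genome and are alike in sequence, so single members are uncertain. Of 20 spinous genes kept 1 did not overlap, Hes1, dorsal-high by -0.28.

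Stfa3, a stefin protease inhibitor, had 443 and 1279 in dorsal cells, 1075 and 3568 in virgin ventral and 8667 and 15631 in 16 dpc ventral cells, so that virgin ventral replicate 1 lay below dorsal replicate 2. Thy1, a surface glycoprotein of T cells and fibroblasts, was below dorsal in virgin and above it in 16 dpc ventral cells, with 1347 and 2235 in dorsal, 402 and 457 in virgin ventral and 3086 and 4216 in 16 dpc ventral cells. Neither gene was separated by site.

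Cell division genes had no member without overlap among 34 kept S phase and mitosis genes, with a list median of 0.44. Their median was 0.03 in virgin and 0.83 in 16 dpc ventral cells over dorsal cells. Mki67, the proliferation marker, had 832 and 1163 in dorsal cells, 865 and 1762 in virgin ventral and 2078 and 2982 in 16 dpc ventral cells, so that the virgin ventral arrays lay within and above the dorsal range.

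Genes of the follicle bulge and outer root sheath were the list with most ventral-high members. Of 19 kept, 7 were ventral-high and none dorsal-high, beside 3.26% and 7.26% of all genes kept. The 7 were Cd34, Lgr5, Lhx2, Ccn2, Col18a1, Postn and Tnc, of which Postn is in the fibroblast list too. The list median was 0.50, and none passed the limma test (7 had an unadjusted p under 0.05). Cd34, a surface marker of bulge stem cells, had 68.4 and 53.4 in dorsal cells, 85.4 and 391 in virgin ventral and 333 and 184 in 16 dpc ventral cells (log2 difference 1.82 ± 0.55, limma adjusted p = 0.921). Lgr5, a receptor of cycling follicle stem cells, had 89.5 and 68.0 in dorsal cells and 134, 484, 392 and 123 on the ventral arrays (1.60 ± 0.57, adjusted p = 0.974). Lhx2, a homeobox factor of the hair germ and bulge, had 181 and 100 in dorsal cells and 223, 662, 423 and 243 on the ventral arrays (1.38 ± 0.45, adjusted p = 0.963). All 3 shared one order of the virgin arrays, with replicate 2 far above replicate 1. Over the 45 ventral-high genes at 2-fold, virgin ventral replicate 2 was the highest ventral array for 30 and virgin ventral replicate 1 the lowest for 25. Krt15, a bulge keratin, overlapped, and the part of the number of follicle cells in these differences was not tested. In RNA from sorted cells in bulk, more cells of a type and more RNA in each such cell cannot be told apart.

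Mammary genes were also described. Of 18 kept, 4 were ventral-high, all at 2-fold in each ventral group, and none dorsal-high, with a median of 0.31. Over all genes kept 3.26% were ventral-high, and 0.409% at 2-fold. The 4 genes (Krt18, Krt19, Csn3 and Btn1a1) were called present on no dorsal array. They were kept through a ventral group alone, so the filter favoured this direction. Krt19, a keratin of luminal gland cells and of the bulge, had 5.29 and 2.82 in dorsal cells, 110 and 282 in virgin ventral and 46.2 and 9.71 in 16 dpc ventral cells. Krt18, a keratin of simple epithelia, had 17.8 and 24.2 in dorsal cells, 161 and 413 in virgin ventral and 94.3 and 47.6 in 16 dpc ventral cells. Both were called present on no dorsal array, and the ventral signals were at least 6.89-fold and 6.33-fold higher, with dorsal Krt19 counted at the lowest signals called present and dorsal Krt18 at its own (limma adjusted p = 0.238 and 0.193). Krt19 was called present on the virgin ventral arrays only. Its 2-fold difference in 16 dpc ventral cells thus lay between signals not called present, and gave no bound there. Their partner Krt8 overlapped, with 47.6 and 34.3 in dorsal, 220 and 474 in virgin ventral and 104 and 9.98 in 16 dpc ventral cells. Its further probe sets, each called present on 1 array only, were ventral-high without overlap, by 3.61 and 3.01 on the log2 scale.

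The milk protein gene Csn3 (κ-casein) had 26.3 and 39.9 in dorsal cells, 79.4 and 129 in virgin ventral and 646 and 112 in 16 dpc ventral cells (limma adjusted p = 0.695). Btn1a1, a protein of the milk fat globule, had 16.0 and 7.07 in dorsal cells and from 23.5 to 52.3 in ventral cells (adjusted p = 0.963). Wfdc18, a whey acidic protein family gene that was not in the list, had 19.3 and 142 in dorsal cells, 325 and 533 in virgin ventral and 1510 and 240 in 16 dpc ventral cells (adjusted p = 0.667). The 3 genes were called present on no dorsal array and were highest on 16 dpc ventral replicate 1, except Btn1a1, which was highest on 16 dpc ventral replicate 2. The summed signal of the 18 mammary genes was 16559 to 20294 in dorsal, 20290 to 22489 in virgin ventral and 17002 to 29571 in 16 dpc ventral cells, and the part of mammary cells in the differences was not tested.

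Most of the macrophage genes listed here were on the dorsal side. A list of 27 was drawn up after the values had been seen, so its counts and median restate those values, and it was not tested. Of its 16 genes kept, 12 were dorsal-high, none ventral-high, and 8 were among the 22 dorsal-high genes at 2-fold, with a list median of -1.37. Over all genes kept 7.26% were dorsal-high, and 0.2% at 2-fold. C1qa and C1qb, subunits of complement C1q, had 145 and 176 and 193 and 325 in dorsal cells. C1qa had 16.55 and 6.84 in virgin ventral and 80.4 and 54.6 in 16 dpc ventral cells, called present on none of these arrays, so that dorsal cells were at least 6.01-fold higher (limma adjusted p = 0.203). C1qa was thus kept through the dorsal arrays alone. For such a gene the filter favoured the dorsal-high direction in the counts above. C1qb had 59.4 and 40.6 in virgin ventral and 123 and 125 in 16 dpc ventral cells (adjusted p = 0.238).

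Pf4, a chemokine of platelets and macrophages, had 237 and 395 in dorsal cells, 32.5 and 44.1 in virgin ventral and 139 and 64.6 in 16 dpc ventral cells (-2.36 ± 0.40, limma adjusted p = 0.139). Saa3, an acute-phase protein, had 309 and 524 in dorsal cells, 40.0 and 66.8 in virgin ventral and 193 and 130 in 16 dpc ventral cells (-2.15 ± 0.34, adjusted p = 0.129). The virgin ventral arrays were the lowest for C1qa, C1qb, Pf4 and Saa3. Mmp9, a matrix protease, and Cd5l, a protein secreted by macrophages, were also dorsal-high at 2-fold, by -2.26 and -2.19, and so was Prg4, a lubricating proteoglycan that is not in the list, by -2.52.

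The macrophage genes that did not separate the sites were Adgre1, Cd14, Mertk and Maf. Adgre1, which encodes the F4/80 antigen, had 170 and 196 in dorsal, 99.4 and 90.5 in virgin ventral and 140 and 171 in 16 dpc ventral cells. Csf1r, the receptor for the macrophage growth factor, had 1114 and 956 in dorsal, 399 and 250 in virgin ventral and 1190 and 958 in 16 dpc ventral cells, so that its lower level was found in virgin cells alone. Of 17 kept genes of antigen-presenting cells, Langerhans cells among them, 5 were dorsal-high and none ventral-high (median -0.50), beside 7.26% and 3.26% of all genes kept. Of 7 genes of dendritic epidermal T cells none was without overlap (median -0.48). The summed signal of the 15 macrophage genes other than Maf, which was bright at 5068 to 7865 on every array, was 4524 to 6661 in dorsal, 1338 to 1560 in virgin ventral and 1869 to 2808 in 16 dpc ventral cells. The part of macrophages in the dorsal-high genes was not tested.

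**Figure D4:**
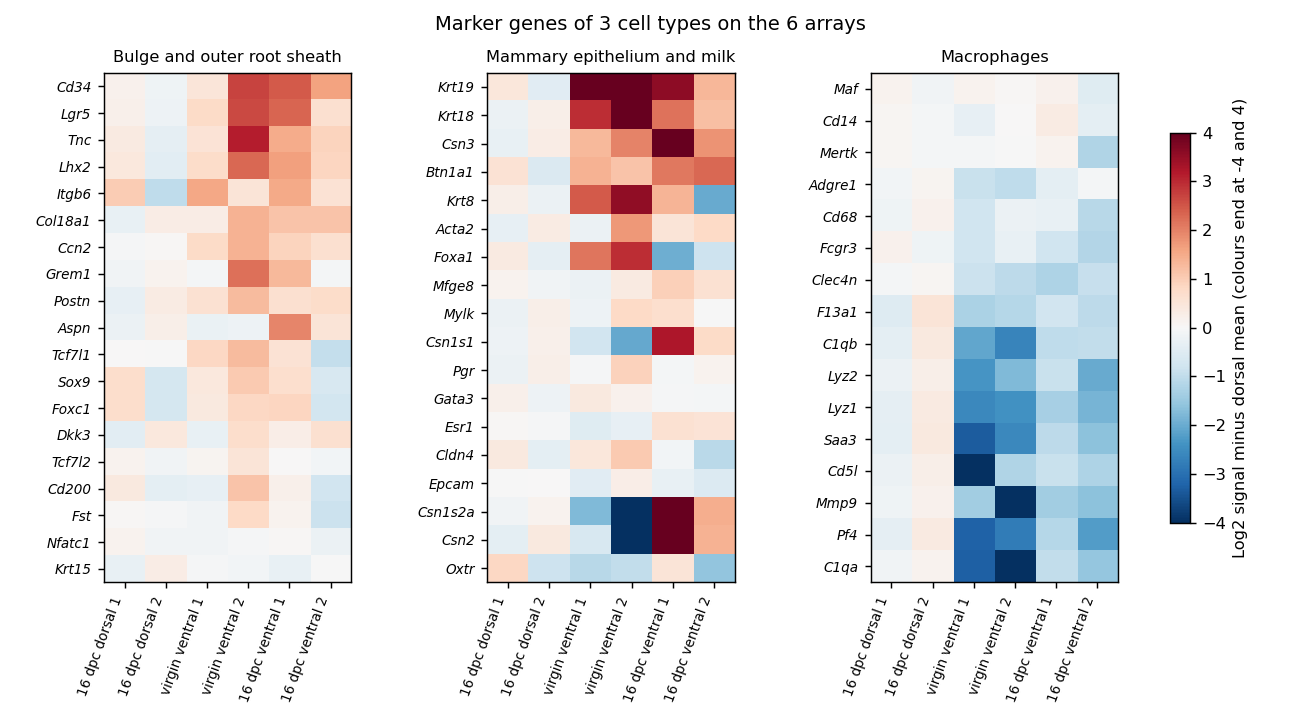
Log2 signal minus the mean of the dorsal arrays, by colour, for the genes kept of 3 cell type lists (rows) on each of the 6 arrays (columns). Red is above and blue below the dorsal mean. Most bulge genes are highest on virgin ventral replicate 2, Krt19 and Krt18 are above dorsal on all ventral arrays, and 12 of 16 macrophage genes are below dorsal on all ventral arrays. The macrophage list was drawn up after the values were seen.

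Markers of other cells were looked at in the same way, beside the 3.26% ventral-high and 7.26% dorsal-high of all genes kept. Of 12 fibroblast genes kept 2 were ventral-high (Sparc, and Postn, which is in the bulge list too) and 1 dorsal-high (Fn1), with a median of 0.56. Of 4 genes kept of endothelium, pericytes and muscle 2 were ventral-high, the pericyte genes Cspg4 and Rgs5 (0.75 each on the log2 scale), with a median of 0.73, and none of the 12 or of the 4 passed the test (limma; 4 and 1 had an unadjusted p under 0.05). The part of these cells in the differences was not tested. Of 4 melanocyte genes kept 1, Mitf, was dorsal-high by -0.45. Of 5 Merkel cell and nerve genes 1 was ventral-high, and it was Krt18, which is in the mammary list too. Of 26 immediate early and dissociation stress genes kept none was without overlap.

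**Figure D5:**
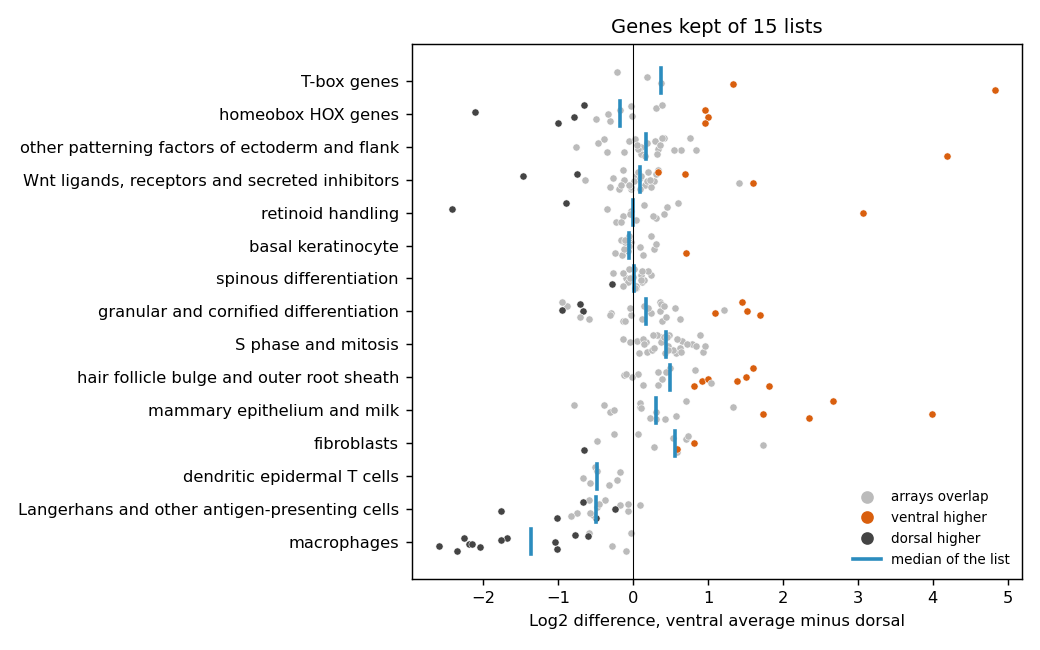
Log2 difference (average of both ventral groups minus dorsal, x axis) of the genes kept of 15 lists (rows). Each point is 1 gene, orange or dark where the 4 ventral and 2 dorsal arrays did not overlap, and the blue bar is the list's median, which runs from -1.37 for macrophage genes to 0.56 for fibroblast genes. The list of macrophages was drawn up after these values were seen, and the other lists were chosen with earlier results of these data known.

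Detection limited many of the members. Of the 45 ventral-high genes at 2-fold, 20 were called present on neither dorsal array, and of the 22 dorsal-high genes 10 were called present on no ventral array, so that for these the array gives a bound. Such genes, Tbx3 among them, were kept only through the side where they were high, so the filter favoured their direction. The median log2 signal was 5.94 for the 67 genes against 9.61 for all genes kept. Where a gene of the 67 had further probe sets called present on at least 2 arrays (14 probe sets of 12 genes), all 14 had the same sign and 11 were without overlap on the same side.

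The promoters of the 2-fold genes were read for 3 short motifs, since genes that move together can share them: GGTGTGA, bound by T-box factors, CTTTGAT, bound by TCF/LEF factors of the Wnt pathway, and TGANTCA, bound by AP-1, each on both strands (the last 3 letters of the first can also begin the third). The windows were 300 bases (250 before and 50 after a start of transcription) from RefSeq (GRCm38.p6), with a window for 31 of the 45 ventral-high and 15 of the 22 dorsal-high genes. A T-box match lay in none of either, against 4.02% of the 8932 genes kept with a window and 4.6% of all 27025 genes with one. AP-1 matches lay in 3 of the 31 and TCF/LEF in 1, against 6.21% and 3.0% of genes kept, and the 15 dorsal-high genes had neither. Over all genes without overlap, T-box matches lay in 11 of 272 ventral-high (4.04%) and 18 of 672 dorsal-high genes (2.68%). A match is a string of letters and not a site shown to be used, and its lack says only that these letters are not in this window.

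The windows that held a match are shown because they are the ones the count above consists of, with the match in capitals. All belong to ventral-high genes: Cald1, the actin binder caldesmon, Kcnk2, a potassium channel with a window at each of 2 starts, and Mme, the peptidase neprilysin, of whose 2 overlapping windows with the same match 1 is shown.
Cald1 (chr6:34709194-34709493, plus strand, AP-1): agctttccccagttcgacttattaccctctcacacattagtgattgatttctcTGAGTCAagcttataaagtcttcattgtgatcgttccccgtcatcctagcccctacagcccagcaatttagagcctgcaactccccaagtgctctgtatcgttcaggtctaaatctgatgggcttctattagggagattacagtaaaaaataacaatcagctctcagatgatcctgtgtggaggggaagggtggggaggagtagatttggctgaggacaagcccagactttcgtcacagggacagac
Kcnk2 (chr1:189344143-189344442, minus strand, AP-1): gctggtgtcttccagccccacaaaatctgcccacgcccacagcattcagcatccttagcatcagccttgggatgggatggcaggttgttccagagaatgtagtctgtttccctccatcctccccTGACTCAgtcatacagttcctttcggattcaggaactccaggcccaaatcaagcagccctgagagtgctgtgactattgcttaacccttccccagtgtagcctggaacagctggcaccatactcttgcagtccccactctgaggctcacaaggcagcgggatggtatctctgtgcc
Kcnk2 (chr1:189402224-189402523, minus strand, TCF/LEF): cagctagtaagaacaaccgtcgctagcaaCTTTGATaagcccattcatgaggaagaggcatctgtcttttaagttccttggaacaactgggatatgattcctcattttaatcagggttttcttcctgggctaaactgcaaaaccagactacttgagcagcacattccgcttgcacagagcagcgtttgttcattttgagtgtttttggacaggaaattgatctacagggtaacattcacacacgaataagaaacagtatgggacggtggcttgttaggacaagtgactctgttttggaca
Mme (chr3:63295622-63295921, plus strand, AP-1): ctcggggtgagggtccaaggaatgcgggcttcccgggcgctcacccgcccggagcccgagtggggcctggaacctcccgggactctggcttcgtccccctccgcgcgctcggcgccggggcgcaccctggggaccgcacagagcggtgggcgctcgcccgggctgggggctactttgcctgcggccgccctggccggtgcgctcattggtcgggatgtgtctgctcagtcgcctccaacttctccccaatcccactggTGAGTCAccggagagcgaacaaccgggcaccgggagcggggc
Cald1 had 111 and 81.9 in dorsal cells and 125, 734, 242 and 184 on the ventral arrays, Kcnk2 49.8 and 53.7 in dorsal cells and 61.4, 211, 172 and 110 on the ventral arrays, and Mme 11.2 and 2.62 in dorsal cells and 22.1, 86.6, 28.6 and 25.7 on the ventral arrays. All 3 were highest on virgin ventral replicate 2 and none passed the test (limma adjusted p = 0.974, 0.974 and 0.963).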

How the data were processed

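Epidermal basal cells positive for integrin α6 were measured on 6 arrays in 3 groups of 2, grouped by the sample labels. Per the file headers the deposited values are MAS5 signal intensities (linear scale) beside detection calls, made by the authors with Affymetrix Expression Console version 1 (submitters' processing notes) and scaled to a trimmed mean of 500.003 on every array, so a change of total RNA per cell cannot be seen. A genome build for the arrays: not given in the sources used here.

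Signals were floored at 1 and put on the log2 scale without any other normalization. Of 45101 probe sets, 64 were controls, 34945 named 1 gene in the platform annotation, 932 several and 9160 none. The probe set of highest mean log2 signal stood for each of 18193 genes, and 10993 of these, present on both arrays in 1 or more groups, were kept. The precision is limited by the number of arrays. The value table of the series held the same signals and was not used.

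Differences were tested with limma 3.58.1 in R 4.3.3 (lmFit, and eBayes with a trend, 3 groups, 3 residual degrees of freedom, two-sided, Benjamini-Hochberg over all genes kept), as the average of both ventral groups minus dorsal. Both ventral groups share the dorsal arrays. Errors are standard errors on the log2 scale. A fold against a group with no array called present is a bound. Genes named were reference genes of the study, the leading genes of each direction (those passing at 2-fold, filled to 8 by smallest p), and the genes of smallest p in each list, with others chosen after their values were seen (Csf1r, Aspa, Wfdc18, Cald1, Kcnk2, Mme and the genes given by their differences alone). The members and lists were chosen with earlier results of these data known. The test was tested on simulated data. Alternatives to the fit, filter, normalization and probe sets are given in the closing section.

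The same-numbered arrays did not pair by deviation from the group means across all 3 groups, although their file headers share their first digits. The correlations were 0.0289 between dorsal and virgin ventral and 0.00688 between both ventral groups, but 0.448 between dorsal and 16 dpc ventral. The 16 dpc arrays thus paired in part by number. Their log2 signals correlated between the sites at 0.980 within number 1 and 0.975 within number 2. Within a site they correlated at 0.972 (dorsal) and 0.977 (ventral). The main fit leaves this pairing out, and the number was used as a block in an alternative only, where 13 genes passed.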

Additional observations from a re-analysis of the deposited data

Results flagged for a closer look

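For 4 of the genes named, the difference from dorsal cells was not the same in the virgin and the 16 dpc ventral groups, by a test of the difference itself (limma, adjusted over all genes). Tgm3 was 1.55 higher on the log2 scale in 16 dpc than in virgin ventral cells (adjusted p = 0.0317), with differences over dorsal cells of 0.74 and 2.30. Thy1 was 3.07 higher (adjusted p = 0.0104), with -2.02 and 1.06, and Csf1r 1.76 higher (adjusted p = 0.0406), with -1.71 and 0.05. Rspo3 was lower in 16 dpc cells, by -1.92 (adjusted p = 0.0142), with 0.32 and -1.60. Of these Tgm3 alone had all 4 ventral arrays on 1 side of the dorsal arrays.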

How the results depend on the processing

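Of the 7 genes that passed, the direction held under every alternative that could be fitted for them, but the calls did not. No gene passed in either direction (0 ventral-high and 0 dorsal-high by limma) when the 4 ventral arrays were pooled as 1 group, with no trend of the variance, or with the mean of all probe sets of a gene, where 345, 513 and 496 genes had an unadjusted p under 0.05. With the replicate number as a block (replicate block) 9 ventral-high and 4 dorsal-high genes passed, and they held all 7. Ventral-high and dorsal-high calls numbered 2 and 2 with no detection filter, 2 and 2 with detection required on all 6 arrays, 1 and 0 without probe sets shared between genes, 1 and 0 with a floor of 32, and 22 and 9 without both 16 dpc arrays of high actin ratio. Quantile normalization made 9 calls, which held all 7. Genes without overlap numbered 834 and 1206 with no detection filter, 349 and 250 of them at 2-fold, 10 and 4 at 2-fold with detection on all 6 arrays, and 24 ventral-high at 2-fold with a floor of 32. Without both 16 dpc arrays of high actin ratio they were 1978 and 2637, with 106 ventral-high at 2-fold. Leaving out each array in turn gave 0 to 10 ventral-high and 0 to 2 dorsal-high calls, 533 to 1540 and 1056 to 3327 genes without overlap, and 31 to 154 and 21 to 63 at 2-fold. Fewer arrays leave more genes without overlap by construction. Quantile normalization gave 6 ventral-high calls.

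The share of ventral-high among genes without overlap was 31.0%, 29.9% after quantile normalization and 41.8% when probe sets were averaged. With averaged probe sets Fzd3, Mitf and Fgf1 turned to 0.0016, 0.10 and 0.73, and Laptm5 turned to 0.11 without shared probe sets; the cause was not tested. The pooled pattern rests on 2 dorsal arrays, both from pregnant mice, and values near the lowest signals called present (6.34 to 11.3) give bounds only.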

Other observations

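Some genes without overlap at 2-fold belonged to none of the lists, and were picked here after their values were seen. Egln3, a prolyl hydroxylase of the oxygen response, was called present on all 6 arrays, with 692 and 725 in dorsal cells, 1084 and 2448 in virgin ventral and 1740 and 1329 in 16 dpc ventral cells (log2 difference 1.15 ± 0.29, limma adjusted p = 0.587). Shisa2, an inhibitor of Wnt and FGF receptors, had 74.4 and 26.1 in dorsal cells and 89.3, 497, 284 and 153 on the ventral arrays (adjusted p = 0.901), and Basp1, a membrane protein of growing axons, had 54.5 and 30.9 in dorsal cells and 86.4, 336, 128 and 72.0 on the ventral arrays (adjusted p = 0.974). Both were highest on virgin ventral replicate 2, as were Cd34, Lgr5 and Lhx2.

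On the dorsal side Slpi, a secreted inhibitor of leukocyte proteases, had 253 and 218 in dorsal cells and from 69.5 to 147 in ventral cells, where no array called it present, so that dorsal cells were at least 2.26-fold higher (limma adjusted p = 0.929). Plek, the platelet and leukocyte protein pleckstrin, had 63.6 and 68.4 in dorsal cells and from 1.70 to 36.1 in ventral cells (adjusted p = 0.974), and Emilin2, an elastin fibre protein, had 64.9 and 168 in dorsal cells and from 3.51 to 42.2 in ventral cells (adjusted p = 0.974). None of the 6 genes passed the test, and each had an unadjusted p of 0.00325 to 0.0534.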
